A study of Mus musculus with 8 samples.

Results

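The genes described here encode the cadherins Cdh1 (E-cadherin), Cdh2 (N-cadherin), Cdh5 (VE-cadherin) and Cdh11 (OB-cadherin), the catenins Ctnna1, Ctnnb1, Ctnnd1 and Jup, the scaffold Tjp1 (ZO-1) and the gap junction protein Gja1 (connexin 43). They are the 10 genes of that list, and a probe set was taken for a gene if the array annotation gave it exactly 1 symbol. This found 14 of the 12488 probe sets on the array, for all 10 genes of the 8252 that have such a probe set. RNA of mouse aortic endothelial cells, as the labels name them, was hybridised to 8 single-colour Affymetrix arrays, 4 of Subconfluent cultures (under 50% confluency) and 4 of Confluent cultures (a mature monolayer). Strain, sex, age, passage and the number of mice are not given in the labels, and confluency is the only difference they state between the cells of the groups. The arrays also differ in chip lot: lot B held only Confluent arrays 2 and 4, and lot D only Subconfluent array 2. The deposited value is a signal, 1 linear number per probe set, which the authors scaled to a target of 500 on each array. The scale factors this took were 3.05 to 13.3, and the median signal of an array was 169 to 187. The labels number the arrays of each group 1 to 4 by experiment. They do not name a separate mouse or culture for each, so the p-values below measure the spread between these arrays, which may be technical.

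Classical cadherins are membrane proteins that bind the same cadherin on the neighbouring cell in the presence of calcium. Inside the cell p120-catenin (Ctnnd1) binds close to the membrane, beta-catenin (Ctnnb1) or its close relative plakoglobin (Jup) binds the end of the tail, and alpha-catenin (Ctnna1) connects these to actin. Endothelial cells carry VE-cadherin at their contacts and N-cadherin over more of their surface, while E-cadherin is typical of epithelia and OB-cadherin of mesenchymal cells. ZO-1 joins tight and adherens junctions to actin, and connexin 43 forms channels between neighbouring cells.

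Cells labelled endothelial were checked first against markers. Only Eng and Cd34, 2 of the 18 endothelial markers on the array, reached a mean signal of 200, the minimum for a test. The summed signal of the 18 ran from 2810 to 4342 on Subconfluent and from 2277 to 4500 on Confluent arrays. Of the 18, 9 were above the array noise (the noise in the labels times the scale factor, 7.86 to 33.97) on all 8 arrays. Cdh5 and Tek were at or under it on most arrays, while Pecam1 and Kdr were above it on all 8. The means of Pecam1 and Kdr were 125 and 108 in Subconfluent and 97.5 and 75.8 in Confluent cells. Flt1 and Sox18 went the other way, with 33.2 and 120 in Subconfluent and 88.7 and 179 in Confluent cells. Of the 2 tested, Eng was at -0.17 and Cd34 at 0.28 on the log2 scale, Subconfluent minus Confluent (limma adjusted p = 0.499 and 0.701). Of 14 fibroblast and pericyte markers 10 reached the minimum, and their sum over the 14 was 38038 to 52895 on Subconfluent and 65465 to 94534 on Confluent arrays, without overlap. Smooth muscle markers summed to 2323 to 10723 against 3606 to 5570. Of the 4 tested, Mylk was at -1.84 on the log2 scale (limma adjusted p = 0.0163). Acta2, Tagln and Actg2 were at 1.14, 1.47 and 0.02 (0.228, 0.108 and 0.978). With the experiment number as a block Acta2 and Tagln passed too (0.0172 and 0.0102). Epithelial and mesothelial markers summed to 1644 to 2328 against 2183 to 6006, and macrophage markers to 1938 to 2592 against 2690 to 4064. Of the 15 epithelial and mesothelial markers 2 reached the minimum and 9 were above noise on all 8 arrays, while Epcam was above it on 2. The brightest of the 15 was the mesothelial gene Upk3b, with means of 1021 in Subconfluent and 2115 in Confluent cells (4350.5 on Confluent array 1). Of the 9 macrophage markers 1 reached the minimum and 6 were above noise on all 8 arrays. That 1, Cd14, made up most of their sum, with means of 1521 in Subconfluent and 2541 in Confluent cells. Cd68 had 180 and 200 and Csf1r 185 and 189, while Ptprc, above noise on 2 arrays, went the other way (12.8 and 9.57). The part of these cell types in the results below was not tested, and in bulk RNA fewer cells of a type and less RNA per cell cannot be told apart.

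The typical difference of the junction genes was close to that of all probe sets tested, and some of the intervals below are wide. Of the 14 probe sets 10, for 8 genes, reached the minimum and were tested. Of these 10, 0 passed the limma test without a block, against 6.81% of all 6007 probe sets tested. At an unadjusted p under 0.05 the count was also 0, against 25.9% of all probe sets tested. The 8 genes had a median log2 difference of -0.10 and a median absolute difference of 0.21, beside 0.01 and 0.25 over all probe sets tested. With the experiment number as a block, which the arrays bear out (arrays of the same number deviated together), Gja1 rose and Cdh2 fell, 2 of 10 probe sets (20.0%), against 21.2% of all probe sets tested, 9.94% higher and 11.3% lower. The members' share is close to that background. All log2 differences are Subconfluent minus Confluent on log2(signal + 50), which understates the fold of low signals.

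**Figure D1:**
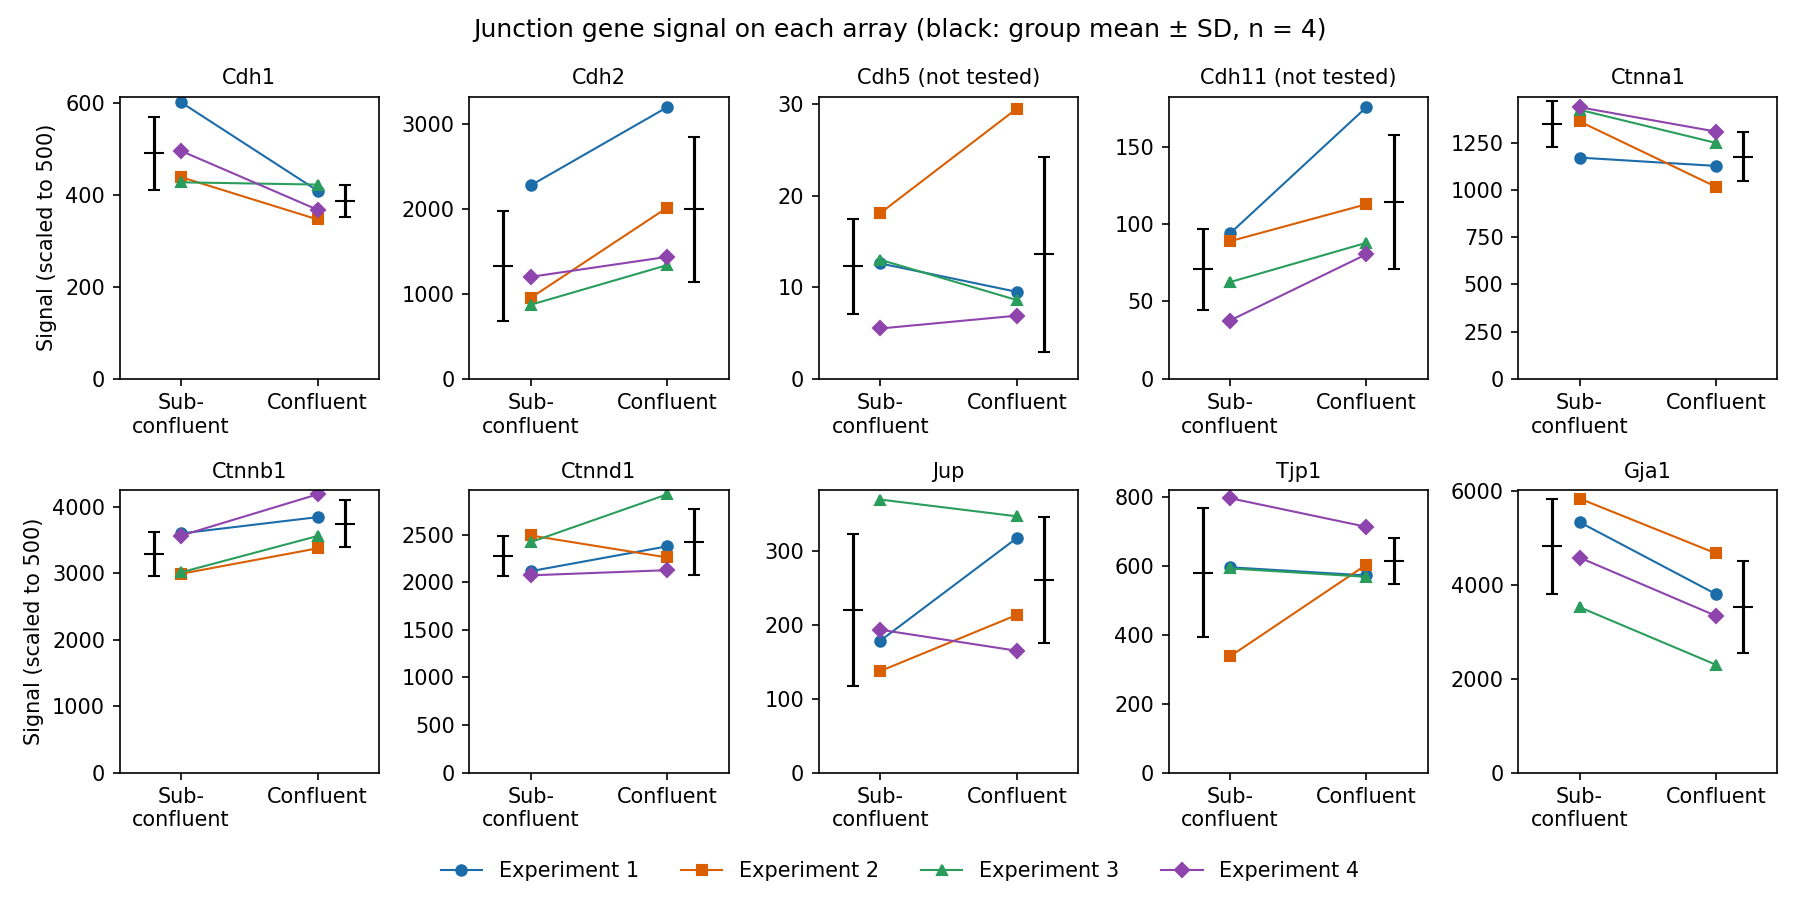
Signal of each of the 10 genes (probe set with the highest mean signal) in Subconfluent cells on the left of each panel and Confluent cells on the right, with a line for each pair of arrays of the same experiment number and the group mean ± SD (n = 4) in black. Gja1 is higher and Cdh2 lower in Subconfluent cells along all 4 lines, while Cdh5 stays under a signal of 30 in both groups; the y axes differ between panels and start at 0.

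Among the cadherins, the N-cadherin gene Cdh2 was lower in Subconfluent cells within each experiment. Its signal was 2281, 954.8, 873.5 and 1203 on Subconfluent arrays 1 to 4, against 3202, 2019, 1341 and 1438 on Confluent arrays 1 to 4. Array 1 was the highest in both groups, and the ranges overlapped because Subconfluent array 1 lay above 3 of the Confluent arrays. Mean signals were 1328 ± 650 and 2000 ± 855 (SD, n = 4 each). The difference was -0.59 ± 0.33 (SE, limma adjusted p = 0.289), with a 95% interval of -1.32 to 0.13. With the experiment number as a block it was -0.59 ± 0.15 (limma adjusted p = 0.0261), 1.51-fold lower, with an interval of -0.93 to -0.25. The 4 pairs gave -0.48, -1.04, -0.59 and -0.25. This call ended when pair 1, 2 or 3 was left out (adjusted p = 0.0652, 0.0641 and 0.0943) and held without pair 4 (0.0447). Without the block, leaving out Confluent array 1 gave -0.34 and leaving out Subconfluent array 1 gave -0.88. Within chip lot A (1 array against 1) the difference was -0.48, and within lot C (2 Subconfluent arrays against 1 Confluent array) it was -0.37. Of the 10 fibroblast and pericyte markers tested 4 fell without the block (Dcn, Lum, Col1a2 and Col3a1) and 6 with it, while Fbln1, Fbln2 and S100a4 were at 0.14, 0.20 and 0.005 and did not pass. The mean log2 level of the 10 stood at -1.08 to -0.71 on Subconfluent and -0.20 to 0.42 on Confluent arrays, relative to the Confluent mean. The log2 level of Cd14, the 1 macrophage marker tested, stood at -0.92 to -0.41 on Subconfluent and -0.39 to 0.39 on Confluent arrays. These ranges nearly met but did not overlap. The difference of Cd14, -0.70, did not pass without the block (limma adjusted p = 0.0563) and passed with it (0.0228). The 2 epithelial and mesothelial markers tested were Upk3b and Muc1. Upk3b was at -0.85 and lower in all 4 pairs (limma adjusted p = 0.161, or 0.0271 with the block). Muc1 was at -0.26 and lower in 3 of 4 pairs (0.729, or 0.561 with the block).

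The E-cadherin gene Cdh1 pointed the other way. Its signal was 600.7, 438.3, 427 and 495.2 on Subconfluent arrays 1 to 4, against 408.8, 346.3, 422.1 and 367.4 on Confluent arrays 1 to 4. All Subconfluent values lay above all Confluent values. Groups that did not overlap were found for 16.9% of all probe sets tested, 8.34% higher and 8.54% lower in Subconfluent cells. The means were 490 ± 79.4 and 386 ± 35.3 (SD, n = 4 each). The log2 difference of 0.30 ± 0.16 did not pass (SE, limma adjusted p = 0.256, or 0.163 with the experiment number as a block), and its 95% interval of -0.05 to 0.65 runs up to 1.57-fold higher. In pair 3 the difference was 0.02, against 0.30 to 0.50 in the other pairs. Within lot A it was 0.50 and within lot C 0.11.

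The gene of VE-cadherin, the junction cadherin typical of endothelium, was at the level of the array noise. The signal of Cdh5 was 12.6, 18.1, 13 and 5.5 on Subconfluent arrays 1 to 4, against 9.5, 29.5, 8.6 and 6.9 on Confluent arrays 1 to 4. It exceeded the array noise on 1 of 8 arrays, so the values have no order between the groups. Whether its 1 probe set responds to Cdh5 was not tested. The mesenchymal cadherin gene Cdh11 was above noise on all 8 arrays but under the minimum for a test. Its signal was 93.9, 88.9, 62.5 and 37.7 on Subconfluent arrays 1 to 4, against 175.5, 112.8, 87.9 and 80.5 on Confluent arrays 1 to 4. It was lower in Subconfluent cells in all 4 pairs and the arrays had the same order in both groups, array 1 the highest and array 4 the lowest. With no filter on signal, the log2 difference of -0.44 ± 0.25 did not pass (SE, limma adjusted p = 0.428, or 0.230 with the experiment number as a block), where 1.67% and 6.94% of 12422 probe sets passed.

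**Figure D2:**
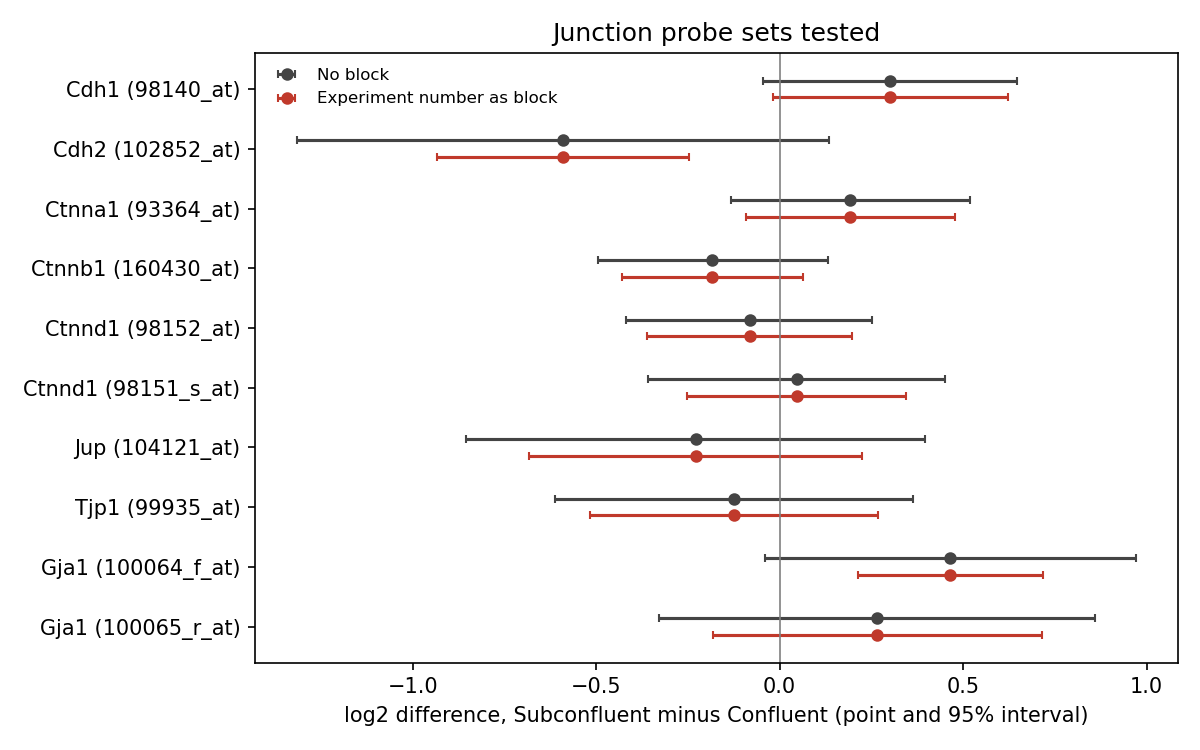
The log2 difference of each of the 10 junction probe sets tested, Subconfluent minus Confluent, with its 95% interval from limma without a block (grey) and with the experiment number as a block (red). With the block the intervals of Cdh2 (-0.93 to -0.25) and of 1 Gja1 probe set (0.21 to 0.72) lie clear of 0, and those of the other 8 include 0.

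None of the catenin genes passed the test, with or without the block. Ctnnb1, which also acts as a transcription coactivator in Wnt signalling, had 3603, 2995, 3018 and 3570 on Subconfluent arrays 1 to 4, against 3849, 3379, 3565 and 4192 on Confluent arrays 1 to 4. It was lower in Subconfluent cells in all 4 pairs, by 0.09 to 0.24 on the log2 scale, and the groups overlapped. The difference of -0.18 ± 0.14 did not pass (SE, limma adjusted p = 0.467, or 0.271 with the experiment number as a block), and its 95% interval of -0.50 to 0.13 reaches from 0.709 to 1.10 times the Confluent level.

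Ctnna1, the link of the complex to actin, had 1172, 1363, 1425 and 1438 on Subconfluent arrays 1 to 4, against 1128, 1017, 1249 and 1309 on Confluent arrays 1 to 4. It was higher in Subconfluent cells in all 4 pairs, by 0.05 to 0.41, and the groups overlapped. The log2 difference was 0.19 ± 0.15 (SE, limma adjusted p = 0.458), with an interval of -0.13 to 0.52. A further probe set of Ctnna1 had signals of 37.3 to 99.6, under the minimum. In all, 3 of the 8 genes tested were higher and 2 lower in all 4 pairs, and of all probe sets tested 20.7% were higher and 22.1% lower in all pairs, 42.8% together.

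Ctnnd1, which holds cadherins at the membrane, was measured by 2 probe sets over the minimum. The brighter had 2115, 2491, 2421 and 2072 on Subconfluent arrays 1 to 4, against 2377, 2259, 2922 and 2126 on Confluent arrays 1 to 4. The other had 387.7 to 537.3 on Subconfluent and 320.1 to 527.5 on Confluent arrays. Their log2 differences were -0.08 ± 0.15 and 0.05 ± 0.18 (SE, limma adjusted p = 0.790 and 0.911), so the direction for Ctnnd1 depends on the probe set. The interval of the brighter one, -0.42 to 0.25, reaches from 0.748 to 1.19 times the Confluent level.

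Plakoglobin, which replaces beta-catenin in some cadherin complexes and is part of desmosomes, varied most between experiments among the catenins. Jup had 179, 137.8, 370.4 and 193.8 on Subconfluent arrays 1 to 4, against 318.2, 213.9, 347.7 and 165.3 on Confluent arrays 1 to 4. Pairs 1 and 2 gave -0.69 and -0.49, and pairs 3 and 4 gave 0.08 and 0.18. The log2 difference was -0.23 ± 0.28 (SE, limma adjusted p = 0.671), and the wide interval of -0.86 to 0.40 allows from 0.553 to 1.32 times the Confluent level.

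The ZO-1 gene Tjp1 had 595.4, 336.9, 592 and 795.8 on Subconfluent arrays 1 to 4, against 571.7, 603.1, 567.8 and 712.6 on Confluent arrays 1 to 4. Subconfluent array 2 was the only low one. In pair 2 the difference was -0.76, against 0.05 to 0.15 in the other 3. The log2 difference was -0.12 ± 0.22 (SE, limma adjusted p = 0.780), and 0.09 (adjusted p = 0.809) without Subconfluent array 2. A further probe set of Tjp1 had signals of 2.4 to 19, above noise on 3 of 8 arrays.

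Connexin 43 was higher in Subconfluent cells in every pair by its brighter probe set. Gja1 had 5344, 5848, 3530 and 4588 on Subconfluent arrays 1 to 4, against 3808, 4678, 2301 and 3344 on Confluent arrays 1 to 4. Both groups had the same order of arrays, highest on array 2 and lowest on array 3, and their ranges overlapped. The means were 4828 ± 1008 and 3533 ± 990 (SD, n = 4 each). The log2 difference was 0.46 ± 0.23 (SE, limma adjusted p = 0.228) with a 95% interval of -0.04 to 0.97. With the experiment number as a block it was 0.46 ± 0.11 (limma adjusted p = 0.0210), 1.38-fold higher, with an interval of 0.21 to 0.72. The 4 pairs gave 0.48, 0.32, 0.61 and 0.45, with an SD of 0.12. Single arrays had an SD of 0.37 within the groups, which is not the SD of a difference between 2 arrays. The paired call ended without pair 1, 3 or 4 (adjusted p = 0.0524, 0.101 and 0.0812) and held without pair 2 (0.0260). Within lot A the difference was 0.48 and within lot C 0.79.

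The dimmer Gja1 probe set, made from the same sequence record, gave a less even picture. It had 846.7, 401.9, 354.8 and 551.8 on Subconfluent arrays 1 to 4, against 473.2, 569.8, 281.1 and 390 on Confluent arrays 1 to 4. It was higher in 3 of 4 pairs and lower in pair 2 (-0.46). Its log2 difference of 0.27 ± 0.27 did not pass (SE, limma adjusted p = 0.595, or 0.378 with the experiment number as a block). By the array's naming rules the brighter probe set (suffix _f_at) may also detect related genes and the dimmer one (suffix _r_at) was designed with relaxed rules. The rise of Gja1 with the block thus rests on 1 of 2 probe sets.

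**Figure D3:**
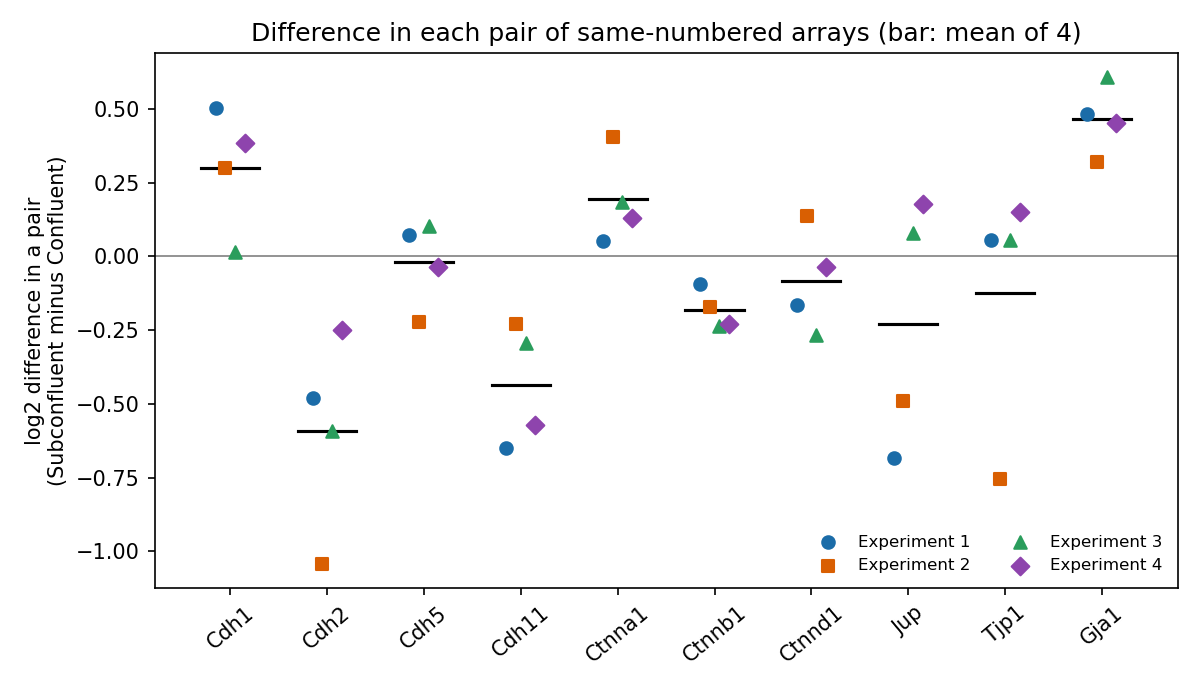
The log2 difference between the Subconfluent and the Confluent array of the same experiment number, for the brightest probe set of each of the 10 genes, with the mean of the 4 pairs as a bar. All 4 pairs lie above 0 for Gja1, Cdh1 and Ctnna1 and below 0 for Cdh2, Cdh11 and Ctnnb1; Jup splits 2 against 2, and Tjp1 lies well below 0 in experiment 2 alone.

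Promoter sequences are shown for Gja1, the gene that rose with the block, and for Jup and Tjp1, which did not pass, because these 3 have 1 start each in the RefSeq promoter table (GRCm38.p6) outside the chromosomes not shown. Of the 10 genes 5 matched that table. Each window holds 250 bases before the start and 50 after it, 5′ to 3′ on the gene's strand: chr10:56377050-56377349 on the plus strand for Gja1, chr11:100397741-100398040 on the minus strand for Jup and chr7:65371195-65371494 on the minus strand for Tjp1. Capitals mark the AP-1 motif TGANTCA in Gja1 and the Sp1 box GGGCGG, or its reverse complement, in Jup and Tjp1.
Gja1: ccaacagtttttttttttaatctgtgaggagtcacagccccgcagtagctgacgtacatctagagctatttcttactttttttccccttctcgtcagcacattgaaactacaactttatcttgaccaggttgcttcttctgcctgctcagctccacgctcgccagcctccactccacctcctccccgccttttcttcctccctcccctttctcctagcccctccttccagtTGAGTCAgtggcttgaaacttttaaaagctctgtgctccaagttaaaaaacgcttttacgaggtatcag
Jup: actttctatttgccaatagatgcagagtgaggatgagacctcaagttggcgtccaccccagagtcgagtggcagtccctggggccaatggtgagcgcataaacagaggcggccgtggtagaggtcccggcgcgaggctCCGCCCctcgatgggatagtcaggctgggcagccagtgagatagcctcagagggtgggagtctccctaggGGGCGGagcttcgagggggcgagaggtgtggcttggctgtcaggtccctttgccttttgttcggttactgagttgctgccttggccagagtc
Tjp1: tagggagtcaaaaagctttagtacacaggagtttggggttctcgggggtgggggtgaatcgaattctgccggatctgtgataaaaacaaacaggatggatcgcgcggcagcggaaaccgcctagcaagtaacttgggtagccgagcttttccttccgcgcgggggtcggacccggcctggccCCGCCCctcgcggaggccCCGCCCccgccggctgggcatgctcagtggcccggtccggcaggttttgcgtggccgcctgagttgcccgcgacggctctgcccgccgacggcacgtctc
The AP-1 motif, bound by Fos and Jun proteins, began 19 bases before the start of Gja1 and was in 7.81% of 32817 promoter windows of this length. The Sp1 boxes began 112 and 42 bases before the start of Jup and 68 and 50 before that of Tjp1, and 35.6% of all windows held one. On both strands 3 other motifs were searched, the E-box CACCTG of Snail and Zeb repressors (20.2% of windows), the TEAD motif ACATTCC (3.85%) and TATAAA (13.6%), and none of them was in these 3 windows. No motif overlapped another. A match is a description of the letters and not a bound site.

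The genes most like Gja1 and Cdh1, the 2 members with the smallest p in the fit without a block (with it, Gja1 and Cdh2), were sought over the 8 arrays by Pearson correlation of the log2 signals. For Gja1 these were Ccz1 (r = 0.97), Tmod3 (0.96) and Degs1 (0.96), and for Cdh1 they were Pwp1 (0.95), Zfp131 (0.94) and Ipo7 (0.92). The arrays share RNA and scaling across genes, and these were the highest among all genes tested, so the values are a description only.

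Around the cadherins and catenins, other junction genes were mostly faint. In the adherens junction list 8 of 24 genes on the array reached the minimum. Of these 0 passed the limma test, against 2.75% higher and 4.06% lower over all probe sets tested. At an unadjusted p under 0.05 there were 2 of the 8, close to the 25.9% of all probe sets tested. The list's median was 0.08. With the block 1 gene, Cdh3, rose and 0 fell, against 9.94% higher and 11.3% lower over all probe sets tested. The P-cadherin gene Cdh3 had 1356, 2554, 1773 and 1445 on Subconfluent arrays 1 to 4, against 845.5, 1507, 1368 and 1157 on Confluent arrays 1 to 4. It was higher in all 4 pairs, and Confluent arrays 2 and 3 reached into the Subconfluent range. Its log2 difference was 0.52 ± 0.23 (SE, limma adjusted p = 0.191, or 0.0259 with the experiment number as a block), and the paired call ended without any 1 of the 4 pairs (0.0608 to 0.0779). The actin crosslinker gene Actn1 was at 0.50 and the junction linker gene Vcl at -0.32 (limma adjusted p = 0.191 and 0.288).

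Of the tight junction genes 7 of 20 were tested, 1 rose and 0 fell, against 2.75% higher and 4.06% lower over all probe sets tested. This was Ybx3, whose product binds ZO-1 and was described as ZONAB in dog kidney cells. Ybx3 had 6731, 3907, 4223 and 4839 on Subconfluent arrays 1 to 4, against 2499, 3046, 2328 and 2409 on Confluent arrays 1 to 4. All Subconfluent values lay above all Confluent values. Its log2 difference was 0.90 ± 0.19 (SE, limma adjusted p = 0.0227). The call ended without Confluent array 3, Confluent array 4 or Subconfluent array 4 (adjusted p up to 0.0661) and held with the block (0.00842). Within lot A the difference was 1.41 and within lot C 0.94. F11r, which encodes junctional adhesion molecule A, had 1320, 1140, 843.4 and 898.1 on Subconfluent arrays 1 to 4, against 2866, 2190, 1499 and 1326 on Confluent arrays 1 to 4, with Subconfluent below Confluent values without overlap. The difference was -0.83 ± 0.25 (SE, limma adjusted p = 0.0655), and with the block F11r fell (0.00520). Ppp2ca was at 0.39 (adjusted p = 0.448). The list's median was 0.11, and with the block 1 gene rose and 1 fell (9.94% and 11.3% over all). Both paired calls held without any 1 pair.

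Gap junction and desmosome genes gave 2 tested genes each. The connexin genes Gja5 and Gjb5 were at 0.28 and 0.08 on the log2 scale (limma adjusted p = 0.605 and 0.826), and 8 further connexin genes on the array lay under the minimum. Pkp4, an armadillo-repeat relative of p120-catenin, had 911.3, 655.2, 649.6 and 664.1 on Subconfluent arrays 1 to 4, against 472.1, 464.5, 439.2 and 501.1 on Confluent arrays 1 to 4. The groups did not overlap, and the difference was 0.56 ± 0.15 (SE, limma adjusted p = 0.0532, or 0.0234 with the block). The paired call ended without pair 1, 3 or 4 (0.0888, 0.0821 and 0.0602). Ppl, a plakin of the desmosomal plaque, was at -0.08 (0.897).

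The genes of 3 secreted proteins from Wnt antagonist families fell, and the other genes of the beta-catenin regulation list did not pass without the block. Of the list's 33 genes on the array 24 were tested, 3 fell (Sfrp1, Dkk3 and Sfrp2) and 0 rose, with a median of -0.11, against 2.75% higher and 4.06% lower over all probe sets tested. With the block 5 fell, against 11.3% over all, and 2 to 4 fell when a pair was left out (2 without pair 1 or pair 4). The 2 further genes under the block, named after their values were seen, were the Wnt receptor gene Fzd1 (-0.80, adjusted p = 0.0194 with the block) and the beta-catenin ubiquitin ligase gene Btrc (-0.56, 0.0416). The paired call of Fzd1 ended without pair 1 or 4 (0.0653 and 0.101), and that of Btrc without any 1 pair (0.0705 to 0.167). Sfrp1, a secreted frizzled-related protein that binds Wnts, had 1278, 207.4, 1558 and 2718 on Subconfluent arrays 1 to 4, against 8613, 3565, 4470 and 8027 on Confluent arrays 1 to 4. Its lowest Confluent value was above its highest Subconfluent value. The difference was -2.39 ± 0.60 (SE, limma adjusted p = 0.0410), and 5 of the 8 fits without 1 array ended the call (each of Confluent arrays 1, 3 and 4 and Subconfluent arrays 1 and 3, adjusted p up to 0.0966). Within lot A it was -2.71 and within lot C -1.10. Over all 8 fits without 1 array its value ran from -2.83 to -1.69, the latter without Subconfluent array 2.

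Dkk3, a divergent member of the Dickkopf family, was at -1.19 ± 0.24 (SE, limma adjusted p = 0.0204), and lost its call without Confluent array 4, Subconfluent array 2 or Subconfluent array 4 (up to 0.0592). Sfrp2 was at -0.75 ± 0.19 (adjusted p = 0.0413) and lost it without any 1 of the 8 arrays (0.0616 to 0.103). All 3 held with the block (0.00254, 0.00305 and 0.0131 for Dkk3, Sfrp1 and Sfrp2), and of these paired calls only that of Sfrp2 ended without a pair (0.0571 without pair 1 and 0.0516 without pair 4). The 4 fibroblast and pericyte markers named beside Cdh2 fell too, and the part of those cells was not tested. Among the cytoplasmic regulators Apc was at 0.19, Axin1 at -0.07 and Csnk1a1 at -0.23 (adjusted p = 0.606, 0.873 and 0.475), named after their values were seen.

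Of the proteases and repressors that act on cadherins 11 of 15 genes on the array were tested, 2 fell and 0 rose, with a median of -0.06, against 4.06% lower and 2.75% higher over all probe sets tested. With the block 4 fell and 2 rose (11.3% and 9.94% over all), and with a pair left out 2 to 4 fell (2 without pair 1, 3 or 4) and 0 to 1 rose (0 without pair 3 or 4). Mmp3, a matrix protease that can cleave the outer part of E-cadherin, had 1581, 959.3, 3179 and 2588 on Subconfluent arrays 1 to 4, against 13799, 7082, 13654 and 15872 on Confluent arrays 1 to 4. The groups lay far apart. The difference was -2.65 ± 0.36 (SE, limma adjusted p = 0.00361), and it held in all 8 fits without 1 array (0.00256 to 0.0162). Mmp14, a membrane-bound matrix protease, was at -0.77 ± 0.20 (adjusted p = 0.0470). Its call ended in 7 of these 8 fits, all but the one without Confluent array 2 (up to 0.115), and it was lower in 3 of 4 pairs. Its paired call (0.0240) ended without pair 1, 3 or 4 (adjusted p of 0.0983 or more). Within lots A and C, Mmp3 was at -3.09 and -2.23, and Mmp14 at -1.19 and -1.09. Snai2, a repressor of the E-cadherin gene, was at 0.51 ± 0.17 (adjusted p = 0.0902, or 0.0298 with the block), higher in all 4 pairs, and its paired call ended without pair 2, 3 or 4 (0.0567, 0.113 and 0.135).

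**Figure D4:**
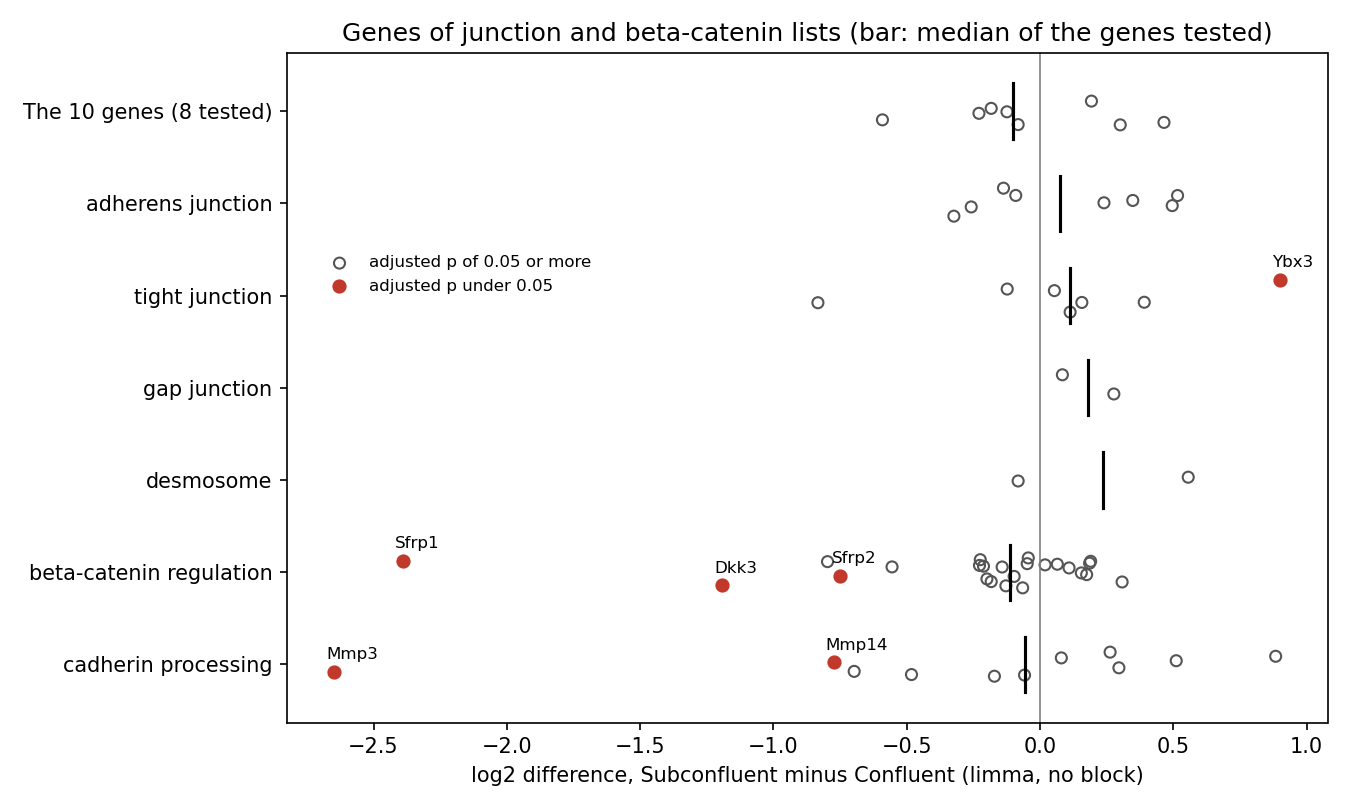
The log2 difference of every tested gene (circles, brightest probe set) by list, Subconfluent minus Confluent, with filled circles for a limma adjusted p under 0.05 and a bar at the median of the genes tested. The 8 genes tested of the 10 lie between -0.59 and 0.46 with no filled circle, while Sfrp1 and Mmp3 lie furthest to the left and Ybx3 to the right.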

How the data were processed

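Signals of 4 Subconfluent and 4 Confluent arrays, 1 sample each, were analysed. The deposited signal is linear. Per the labels, the authors computed it by Affymetrix's "Statistical" algorithm with a target of 500 for all probe sets. The software version is not given in the sources used here. Every array had a trimmed mean of 500.3, so the signals were not normalized again. Of the 12488 probe sets, 66 are controls and were left out. A probe set was tested if its signal averaged 200 or more (6007 probe sets). The number of arrays limits the precision.

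The annotation named 1 gene for 10855 probe sets, while 396 had several symbols and 1237 had none. For a gene with several probe sets the brightest stood for it. Log2(signal + 50) in Subconfluent and Confluent cells was fitted with limma 3.58.1 (R 4.3.3; lmFit, then eBayes with a trend). P-values are two-sided, adjusted by the Benjamini-Hochberg method across the 6007, and called at 0.05. Tables and plots used Python 3.11.15, pandas 2.3.3, numpy 2.4.6 and matplotlib 3.10.9. The fits were also run on simulated data that held an effect of the experiment number and none of the chip lot. That run therefore says nothing about lots.

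Arrays of the same experiment number deviated from their group means together (correlations across probe sets of 0.486, 0.357, 0.516 and 0.348, against at most 0.0681 between other numbers). A fit with the number as a block is therefore given where it changes a call. Chip lot A held array 1 of each group, and lot C held Subconfluent arrays 3 and 4 and Confluent array 3. The other lots held 1 group each.

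The 10 genes and the lists were chosen with earlier results of these data known. All 10 genes are named, and from each list the genes that passed and the 3 with the smallest p. Genes beyond this are marked as named after their values were seen. Alternatives were other pseudocounts, filters, scalings, blocks, weights, the scale factor as a covariate and arrays left out.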

Additional observations from a re-analysis of the deposited data

Results flagged for a closer look

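Within a group of 4 arrays, a value was picked out when its gap to the nearest other value passed Dixon's 95% critical value. This was checked in 60 groups of 4 values, and chance picks out about 1 in 20 such groups, which is as many as the 3 found. Cdh5 had a signal of 29.5 on Confluent array 2, against 6.9 to 9.5 on the other Confluent arrays, and the noise of that array was 33.97. The dimmer Ctnnd1 probe set had 320.1 on Confluent array 1, against 494.8 to 527.5 on the other 3. Pkp4 had 911.3 on Subconfluent array 1, against 649.6 to 664.1 on the other 3.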

How the results depend on the processing

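Across 27 alternative settings the member differences were recomputed 270 times. Of these 252 kept their direction and, where a test was possible, their side of the threshold. Within lot A (1 array against 1) no test was possible, and only the direction was compared. A further 6 kept their direction and passed the threshold. The other 12 changed sign, all of them in Tjp1 or Ctnnd1 and none past the threshold. Those that passed were Gja1 and Cdh2, each under 3 settings with the replicate block. With the replicate block 1 member probe set rose and 1 fell, against 0 and 0 without it, and the counts over all probe sets were 597 higher and 679 lower, against 165 and 244. With a pair left out under the block the member counts were 0 to 1 in each direction, and all counts 223 to 652 higher (258 without pair 1) and 353 to 618 lower (367 without pair 3 and 413 without pair 4). With 1 array left out and no block they were 0 for the members, and 18 to 342 higher and 80 to 345 lower over all. With no filter 72 were higher and 136 lower, with chip lot as a fixed block 368 higher, with it as a random block 453 higher and 485 lower, within lot C 2 and 3, and with array weights 311 higher. The brighter Tjp1 probe set (-0.12) was at 0.086 with the block and without pair 2, 0.168 with chip lot as a fixed block, 0.054 within lot A, 0.254 within lot C and 0.001 with array weights, and between -0.284 and 0.092 with 1 array left out (0.092 without Subconfluent array 2). The dimmer Ctnnd1 probe set (0.05) was at -0.019 with the block and without pair 1, -0.039 within lot C and -0.029 with array weights, and between -0.105 (without Confluent array 1) and 0.132 with 1 array left out. The brighter one (-0.08) was between -0.14 and 0.01 (without Confluent array 3). The cause of these changes was not tested. With the block and no filter, an alternative chosen after seeing the data, Cdh2 and Gja1 had adjusted p = 0.0479 and 0.0368. Cdh5, Cdh11 and the dimmer probe sets of Ctnna1 and Tjp1 could be fitted only without the filter. Signals near the array noise (Cdh5, the dimmer Tjp1 probe set) carry no order between the groups.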

Other observations

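Within each array the log2 signal of Cdh1 minus that of Cdh2, a comparison chosen after the values were seen, was -1.84, -1.04, -0.95 and -1.20 on Subconfluent arrays 1 to 4, against -2.83, -2.38, -1.56 and -1.83 on Confluent arrays 1 to 4. It was higher in Subconfluent cells in all 4 pairs, by 0.61 to 1.34, with a mean difference of 0.89. The groups overlapped, since Subconfluent array 1 lay below Confluent arrays 3 and 4. The sign of a value says nothing about which cadherin was more abundant, since 2 probe sets are not on 1 scale.

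The transcription factors known to repress the E-cadherin gene did not move as 1 group, and all but Snai2 were named after their values were seen. With the experiment number as a block Snai2 and Twist2 rose (log2 difference 0.51 and 0.88, limma adjusted p = 0.0298 and 0.0449) and Zeb1 fell (-0.48, adjusted p = 0.0418). Each of these paired calls ended in 3 of 4 fits with a pair left out. That of Snai2 held only without pair 1 (0.0364), and those of Twist2 and Zeb1 only without pair 2 (0.0130 and 0.0330). Snai2 was higher and Zeb1 lower in all 4 pairs, while Twist2 was higher in 3 of 4. Twist2 had 152.7 on Confluent array 1, against 589.6 to 846.9 on the other Confluent arrays. Snai1 was at 0.30 and Twist1 at -0.06 (adjusted p = 0.271 and 0.795 with the block). Zeb1 had 475.9, 468.3, 326.4 and 393.9 on Subconfluent arrays 1 to 4, against 809.2, 557.6, 540.4 and 511.7 on Confluent arrays 1 to 4, without overlap between the groups. The presenilin gene Psen2, whose product is the catalytic part of gamma-secretase, which can cleave cadherins, also fell with the block (-0.70, adjusted p = 0.0104), and held without any 1 pair (0.0189 to 0.0466). None of Snai1, Snai2, Zeb1, Twist1, Twist2 and Psen2 passed the limma test without the block.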
